A study of Mus musculus with 10 samples.

Results

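The stress- and growth factor-responsive transcripts of the liver were examined in 10 genes of the 15126 in the deposited table. They were the AP-1 subunits *Fos*, *Jun* and *Junb*, the zinc finger factor *Egr1*, the early response genes *Ier2* and *Btg2*, the mRNA-decay factor *Zfp36*, the MAP kinase phosphatases *Dusp1* and *Dusp6*, and the ETS-family repressor *Erf*. The genes were chosen by name, with 1 row for each, and *Dusp1* and *Erf* were selected on their measured levels. All values below are descriptions of 1 group of livers, and no groups are compared.

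The livers came from male *db/db* mice, which lack a functional leptin receptor and are obese and diabetic. In the AAV8-Control group 5 livers were sequenced, taken at 10 weeks of age and 5 weeks after tail-vein injection of adeno-associated virus 8 carrying eGFP. Every liver described thus carried the *db* mutation and an AAV8 vector, and the promoter of the vector was not given in the sources used here. The labels name the tissue as liver but also describe cultured hepatocytes and adenovirus, which the study's methods use in other experiments.

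Immediate early genes are transcribed within minutes of a signal without new protein synthesis, and their mRNAs are short-lived. ERK, JNK and p38 kinases switch them on through factors that bind serum response and cAMP response elements, and in liver they also respond to feeding, hormones, injury and handling of the tissue. Dusp1 and Dusp6 remove the activating phosphates of MAP kinases and so close the loop, Zfp36 shortens the life of many of these mRNAs, and Erf is a repressor that ERK expels from the nucleus.

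The promoters are shown because cAMP response elements and serum response elements are the classical inputs of these genes. Of the 10 genes, 8 had a promoter in the RefSeq table (GRCm38.p6), and *Egr1* and *Ier2* had none. The 250 bases before the transcription start are given 5′ to 3′ on the gene's own strand for 4 genes, with capitals on the cAMP response element TGACGTCA, on its core TGACG, read on both strands, and on the CArG box, the core of the serum response element.

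Btg2, chr1:134079156-134079405, minus strand: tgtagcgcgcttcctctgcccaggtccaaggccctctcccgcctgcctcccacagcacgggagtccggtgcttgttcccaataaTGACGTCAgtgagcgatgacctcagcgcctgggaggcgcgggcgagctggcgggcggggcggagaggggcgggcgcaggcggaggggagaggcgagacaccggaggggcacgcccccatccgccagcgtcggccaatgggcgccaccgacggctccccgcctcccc

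Dusp1, chr17:26508473-26508722, minus strand: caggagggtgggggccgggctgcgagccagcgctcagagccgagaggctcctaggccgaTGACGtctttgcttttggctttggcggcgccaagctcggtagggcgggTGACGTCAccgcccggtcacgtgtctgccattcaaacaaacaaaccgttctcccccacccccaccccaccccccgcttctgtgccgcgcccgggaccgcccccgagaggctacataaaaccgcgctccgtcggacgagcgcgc

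Fos, chr12:85473640-85473889, plus strand: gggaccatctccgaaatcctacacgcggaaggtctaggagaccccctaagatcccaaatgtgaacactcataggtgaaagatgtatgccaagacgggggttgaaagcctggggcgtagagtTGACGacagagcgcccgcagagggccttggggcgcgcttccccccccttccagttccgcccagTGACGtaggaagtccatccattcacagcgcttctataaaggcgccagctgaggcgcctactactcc

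Zfp36, chr7:28379229-28379478, minus strand: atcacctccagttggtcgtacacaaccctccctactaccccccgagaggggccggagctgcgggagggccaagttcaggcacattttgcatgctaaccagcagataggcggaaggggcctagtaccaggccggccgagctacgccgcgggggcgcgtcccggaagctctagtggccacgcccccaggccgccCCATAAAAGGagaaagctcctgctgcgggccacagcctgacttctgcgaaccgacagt

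The full element TGACGTCA stood in 2 of the 8 windows, those of *Btg2* (bases 166 to 159 before the start) and *Dusp1* (bases 143 to 136), and in 1.55% of all 32851 windows of this length. The core TGACG, which every full element also contains, was found in 5 of the 8, those of *Fos*, *Junb*, *Btg2*, *Dusp1* and *Erf*, against 17.8% of all windows. A CArG box lay in the *Zfp36* window only of the 8, at bases 58 to 49, and in 1.47% of all windows. A TATA motif, TATAAA, was in the *Fos* window at bases 33 to 28 and in 12.4% of all windows. These matches describe the letters of the windows, and no binding was measured. Sequence outside the windows was not searched, and *Egr1* and *Ier2* had no window. The lack of a match, as for the CArG box in *Fos*, thus does not show that a gene lacks the element.

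Libraries held 19499795 to 35498596 reads counted on genes, so that 1 read was worth 0.0282 to 0.0513 CPM. CPM is a gene's share of the reads counted on all genes of a library, scaled to a fixed total. Summed hepatocyte markers stood at 98099 to 133230 CPM, Kupffer cell and macrophage markers at 134 to 270 CPM and sinusoidal endothelial markers at 129 to 234 CPM, while those of T and NK cells, B cells and neutrophils did not pass 2.65 CPM in any liver. In bulk tissue, fewer cells of a type and less RNA per cell cannot be told apart.

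**Figure D1:**
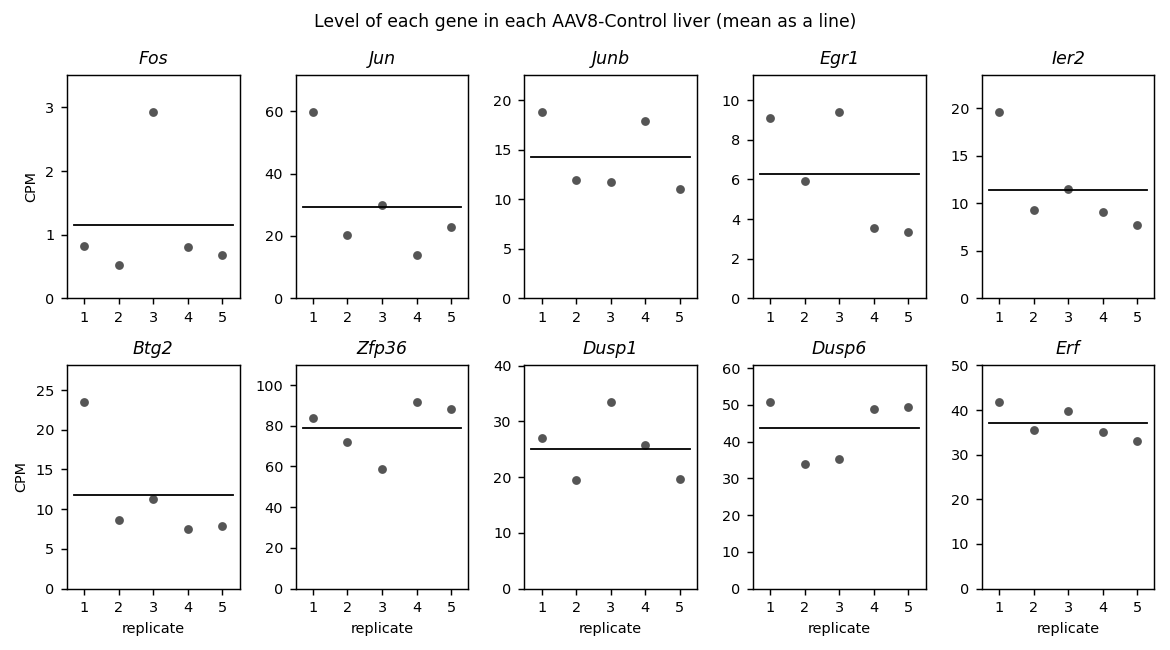
Level of each of the 10 genes in each AAV8-Control liver, in CPM on linear axes from 0 (points, 1 for each replicate number; the line is the mean, n = 5). Replicate 1 stands far above the rest for *Btg2* at 23.5 CPM and replicate 3 for *Fos* at 2.93 CPM, while *Erf* stays between 33.0 and 41.8 CPM.

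Fos, which forms AP-1 with Jun proteins, was the lowest of the 10 at 11 to 104 reads a library. *Fos* read 0.821, 0.530, 2.93, 0.802 and 0.677 CPM in AAV8-Control replicates 1 to 5, with a mean of 1.15 ± 1.0 CPM (SD, n = 5). Replicate 3 held 5.53 times the level of replicate 2, and the other livers lay close together below 1 CPM.

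Jun, the principal partner of Fos and a target of JNK, stood at 9.20 CPM per kilobase of exon, where *Fos* stood at 0.49. *Jun* read 59.8, 20.4, 29.8, 13.9 and 22.8 CPM in replicates 1 to 5, a mean of 29.3 ± 18.0 CPM (SD, n = 5). Replicate 1 was the highest and replicate 4 the lowest, 4.32-fold apart. An antisense gene, *Junos*, overlaps *Jun* in the annotation, and the strand setting of the counting was not given in the sources used here. Only unambiguous reads were counted, so without strand the reads on the overlap would be missing from *Jun*.

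Junb, an AP-1 subunit that can oppose Jun, read 18.8, 11.9, 11.7, 17.9 and 11.0 CPM in replicates 1 to 5, with a mean of 14.3 ± 3.76 CPM (SD, n = 5). Replicates 1 and 4 were high and the other livers lay within 1 CPM of each other. Replicate 4 was thus second for *Junb* and last for *Jun*. The 3′ ends of *Junb* and of *Prdx2*, on the other strand, overlap in the annotation.

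Egr1, a zinc finger activator that ERK signalling induces through serum response elements, read 9.08, 5.92, 9.41, 3.57 and 3.33 CPM in replicates 1 to 5. Replicates 1 and 3 were high, replicate 2 lay between, and replicates 4 and 5 were low, 2.82-fold from the lowest to the highest liver. The mean of *Egr1* was 6.26 ± 2.90 CPM (SD, n = 5).

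Ier2, a small nuclear protein of the early response, read 19.6, 9.29, 11.5, 9.08 and 7.68 CPM in replicates 1 to 5, a mean of 11.4 ± 4.78 CPM (SD, n = 5). Btg2, an antiproliferative protein that recruits the deadenylase complex, read 23.5, 8.67, 11.2, 7.55 and 7.93 CPM, a mean of 11.8 ± 6.71 CPM. In both genes replicate 1 led by a wide margin and replicate 3 was second.

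Zfp36, or tristetraprolin, binds AU-rich elements and hastens the decay of inflammatory and early response mRNAs. *Zfp36* read 83.7, 72.0, 58.5, 91.7 and 88.2 CPM in replicates 1 to 5, with a mean of 78.8 ± 13.6 CPM (SD, n = 5). Its order of livers was another one, with replicate 4 the highest and replicate 3 the lowest. An antisense gene, *Gm44710*, overlaps it.

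Dusp1, the nuclear MAP kinase phosphatase that dephosphorylates p38 and JNK, read 27.1, 19.5, 33.5, 25.8 and 19.7 CPM in replicates 1 to 5, a mean of 25.1 ± 5.83 CPM (SD, n = 5). Replicate 3 was the highest and replicate 2 the lowest, as for *Fos*. The annotated span of *Dusp1* covers 56539 bases and overlaps *Ergic1* on the other strand, although the RefSeq start used above lies near its 3′ end.

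Dusp6, a cytoplasmic phosphatase selective for ERK, read 50.8, 33.8, 35.3, 48.9 and 49.4 CPM, with a mean of 43.6 ± 8.33 CPM (SD, n = 5). Replicates 1, 4 and 5 lay close together and above replicates 2 and 3. Erf, the repressor under ERK control, read 41.8, 35.6, 39.7, 35.1 and 33.0 CPM, with a mean of 37.0 ± 3.61 CPM and 1.27-fold between the lowest and the highest liver, the narrowest range of the 10.

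Per length of exon, the mean levels ran from *Zfp36* at 22.7 CPM per kilobase through *Dusp6* at 13.9, *Erf* at 10.3, *Jun* at 9.20, *Dusp1* at 7.59, *Ier2* at 7.51, *Junb* at 6.20 and *Btg2* at 4.29 to *Egr1* at 1.4 and *Fos* at 0.49. The ranges of the 5 livers did not overlap between *Zfp36* and *Dusp6* or between *Btg2* and *Egr1*, and they overlapped between all other neighbours of this order. *Dusp6* was above *Erf* and *Egr1* above *Fos* in 5 of 5 livers even so. *Jun* was above *Dusp1*, and *Dusp1* above *Ier2*, in 3 of 5 livers, so these neighbours did not differ beyond their spread. Lengths are those of the annotated exons joined, which may exceed the transcript the liver makes.

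All of the 10 genes except *Erf* varied more between these livers than most genes did, and 5 of them varied most. The SD over the 5 livers on log2(CPM + 1) was 0.76 for *Jun*, 0.63 for *Btg2*, 0.60 for *Egr1*, 0.55 for *Fos* and 0.49 for *Ier2*, where the median over the 11041 genes averaging 1 CPM or more was 0.14. All 10 genes passed that filter, *Fos* through replicate 3 alone, since its mean without that liver was 0.707 CPM, so the percentile of *Fos* rests on the liver that brought it in. These 5 genes were past the 95th percentile of SD, a limit that by construction 5.00% of all genes pass, at percentiles 99.7, 99.3, 99.2, 98.8 and 98.1. *Junb* stood at 94.2, *Dusp1* at 92.5, *Dusp6* at 89.2 and *Zfp36* at 86.8. *Erf*, with an SD of 0.14 and percentile 49.2, varied like the median gene. Without replicate 1 the count past the 95th percentile was 3 of the 10, with *Btg2* at percentile 83.9 and *Ier2* at 81.3.

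Among genes of the same filter whose mean was within 1.5-fold of their own, *Jun* stood at percentile 99.7 of 2268 genes. *Fos* stood at 98.7 of 685 and *Erf* at 65.0 of 2078. The set of *Fos* was cut on its low side by the filter, which *Fos* passed through replicate 3 alone. *Junb*, at 96.0 of 2509 genes, and *Dusp1*, at 95.4 of 2421, were past the 95th percentile in this setting, which made 7 of the 10. For *Zfp36* the percentile was 92.4 of 1207 genes and for *Dusp6* 94.0 of 1899.

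**Figure D2:**
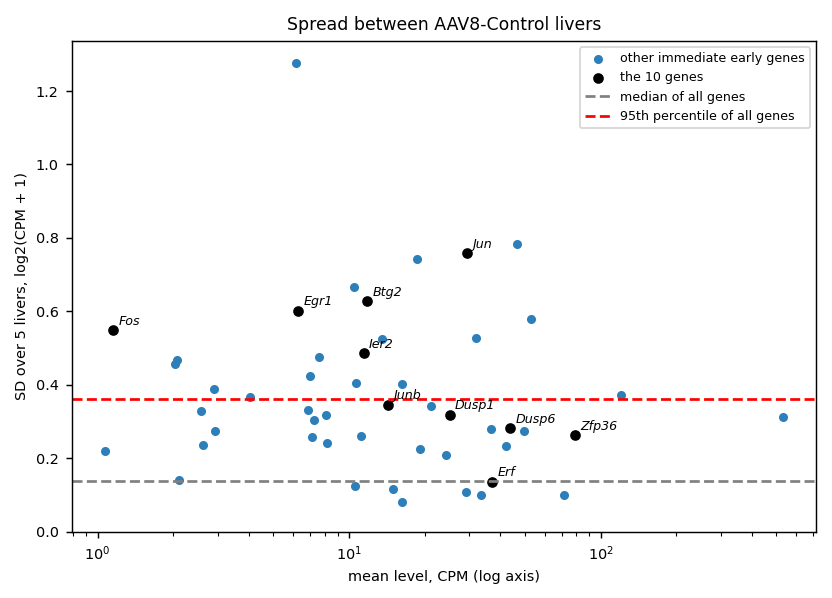
SD of log2(CPM + 1) over the 5 AAV8-Control livers against the mean level in CPM on a log axis, for the 10 genes (black, named) and 40 other immediate early genes (blue), with the median (grey) and the 95th percentile (red) of all genes as dashed lines. *Jun*, *Btg2*, *Egr1*, *Fos* and *Ier2* lie above the red line, and *Erf* lies on the grey one.

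The high livers were largely the same ones from gene to gene. Replicate 1 was first or second for 9 of the 10 genes and replicate 3 for 7, replicates 4 and 5 for 2 each and replicate 2 for 0. Replicates 1 and 3 were together the highest pair for 7 genes, *Fos*, *Jun*, *Egr1*, *Ier2*, *Btg2*, *Dusp1* and *Erf*, and this was so for 20.0% of all 11041 genes. Between the first and second place the genes divided, since *Fos*, *Egr1* and *Dusp1* had replicate 3 first and *Jun*, *Ier2*, *Btg2* and *Erf* replicate 1. *Junb*, *Zfp36* and *Dusp6* made up the exceptions, and in all 3 replicate 3 was below replicate 4. With size factors in place of total reads, 5 of the 10 genes had this pair highest, beside 15.1% of 11039 genes, and *Fos* and *Dusp1* no longer did.

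**Figure D3:**
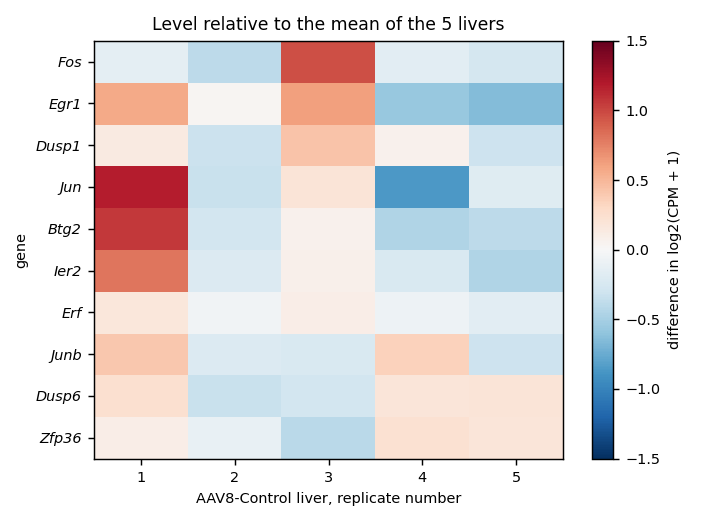
Level of each gene (rows) in each AAV8-Control liver (columns, replicate numbers) relative to the mean of the 5 livers, as a difference in log2(CPM + 1) by colour. Replicates 1 and 3 are above the mean for *Egr1*, *Dusp1*, *Jun*, *Btg2*, *Ier2* and *Erf*. *Fos* is above it in replicate 3 only, and *Junb*, *Zfp36* and *Dusp6* are below it in replicate 3.

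Other measures of the livers are given beside this order. Replicates 1 and 3 also had the highest summed sinusoidal endothelial markers, 234 and 199 CPM, against 129 to 173 CPM in the other livers. Neutrophil markers, near 0 throughout, were highest in them as well at 2.62 and 2.65 CPM, against 1.16 to 2.31 CPM. Replicate 1 had the lowest hepatocyte sum, 98099 CPM against 106171 to 133230 CPM, and the highest platelet and red cell sum, 328 CPM against 263 to 288 CPM, while replicate 3 had the second highest hepatocyte sum, 121890 CPM, and the second lowest platelet and red cell sum, 271 CPM. Stellate cell and fibroblast markers and cholangiocyte markers were highest in replicate 2, at 319 and 53.9 CPM. Kupffer cell and macrophage markers summed to 213 and 254 CPM in replicates 1 and 3 and to 270 CPM in replicate 2, the highest. The mitochondrial share of reads was 9.92% and 10.5% in replicates 1 and 3 and 10.7% to 11.9% in the other livers, and replicate 3 was the deepest library and replicate 1 the shallowest. The part of these measures in the order of the livers was not tested.

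A list of other immediate early genes held 49 genes of the table, of which 40 averaged 1 CPM or more. Of these, 16 were past the 95th percentile of SD, beside 5.00% of all genes, with a median percentile of 92.3. That count was 10 without replicate 5. Replicates 1 and 3 were the highest pair for 22 (55%), beside 20.0% of all genes. With size factors they were it for 20, beside 15.1% of all genes. *Nr4a1*, an orphan nuclear receptor, varied most of the list and read 17.0, 3.56, 7.52, 1.35 and 1.26 CPM in replicates 1 to 5, an SD of 1.28 on the log2 scale at percentile 99.9.

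*Plk3*, a stress-responsive polo-like kinase, read 85.6, 25.2, 51.4, 22.0 and 47.7 CPM. *Sik1*, a kinase induced by cAMP that restrains CREB coactivators, read 39.4, 10.8, 19.0, 11.8 and 11.9 CPM. *Per1*, a clock gene that cAMP and glucocorticoids also induce, read 47.4, 23.1, 43.5, 21.7 and 24.2 CPM. All 3 had replicate 1 first and replicate 3 second. The genes of the list past the 95th percentile that did not have this pair highest were *Id3*, *Ctgf*, *Cyr61* and *Phlda1*. *Id3*, an inhibitor of basic helix-loop-helix factors, stood at percentile 99.0 and read 83.8, 49.7, 49.4, 54.8 and 26.5 CPM in replicates 1 to 5. *Phlda1* read 13.1, 13.6, 11.4, 22.4 and 20.4 CPM, highest in replicates 4 and 5 and lowest in replicate 3, and *Ctgf* was highest in replicate 2 at 10.9 CPM.

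Others of the list varied little. *Nfkbia*, the inhibitor of NF-κB, read 30.9 to 35.4 CPM at percentile 27.6, and *Mcl1*, an antiapoptotic Bcl-2 relative, 64.3 to 77.2 CPM at percentile 28.7. Of the AP-1 subunits in the list, *Jund* read 39.7 to 66.3 CPM and had 29.9 CPM per kilobase of exon, above *Jun*, and *Fosl2* had 0.71. *Fosb* at 0.338 to 0.462 CPM and *Fosl1* at 0.0967 to 0.338 CPM were among the 9 genes under the filter. *Egr2* and *Egr3*, relatives of *Egr1*, were under it as well, at no more than 0.481 and 0.103 CPM.

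The lists around these genes are given by the same counts, and differences between lists were not tested. Of 38 genes of the ERK cascade 1 was past the 95th percentile of SD, with a median percentile of 47.3, and of 24 genes of the JNK and p38 cascade it was 2, with a median of 47.6. Of 10 feedback targets of ERK it was 1 (median 73.5) and of 15 other ETS factors 0 (median 66.5). Of 16 genes of a list joining relatives of Zfp36 and Btg2 with subunits of the deadenylase complex it was 0 (median 45.7). Genes of the glucocorticoid response had 3 of 11 past it (median 89.5), heat shock genes 3 of 12 (median 89.1) and clock genes 3 of 14 (median 78.8). Some of these lists share genes with that of the other immediate early genes, so the counts are not independent. *Gadd45a* and *Gadd45g* were the 2 of the JNK and p38 cascade, and *Phlda1* was the 1 of the ERK feedback targets. *Per1* and *Sgk1* were among the 3 of the glucocorticoid response, and *Per1* was also among the 3 of the clock genes. Replicates 1 and 3 were the highest pair for 9 of the 24 genes of the JNK and p38 cascade (37.5%), 5 of the 15 ETS factors (33.3%), 12 of the 38 genes of the ERK cascade (31.6%) and 5 of 16 in the list of other Dusp family genes (31.2%), beside the 20.0% of all genes. They were it for 3 of the 11 genes of the glucocorticoid response (27.3%) and 2 of the 14 clock genes (14.3%). They were it for 0 of the heat shock genes, the ERK feedback targets and the list of Zfp36 and Btg2 relatives with deadenylase subunits.

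Per length, *Dusp6* and *Dusp1* were among the more abundant of 22 genes named as dual-specificity phosphatases. The mean level was 16.6 ± 1.86 CPM per kilobase of exon for *Dusp23*, 13.9 ± 2.66 for *Dusp6*, 12.6 ± 1.63 for *Dusp3*, 10.0 ± 0.891 for *Dusp28* and 7.59 ± 1.76 for *Dusp1* (SD, n = 5 each). *Dusp23* and *Dusp3* are small atypical members, of which *Dusp3* also acts on ERK and JNK. *Dusp4* at 0.51 and *Dusp8* at 0.50 CPM per kilobase, a nuclear phosphatase of ERK and one of JNK and p38, were the lowest of the 15 that averaged 1 CPM or more.

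The other 7 phosphatases were at or below 2.06 CPM in every liver, a value that *Dusp5*, the nuclear ERK phosphatase, reached in 1 of them. *Dusp1* and *Dusp6* stood at percentiles 92.5 and 89.2 of SD, *Dusp4* at 94.9 and *Dusp8* at 94.8, while *Dusp11*, which acts on RNA, was at 4.0. None of the 15 that averaged 1 CPM or more was past the 95th percentile. *Dusp5* fell just under that filter with a mean of 0.986 CPM, and its SD of 0.39 on log2(CPM + 1) was above the limit of 0.36 that marks this percentile.

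**Figure D4:**
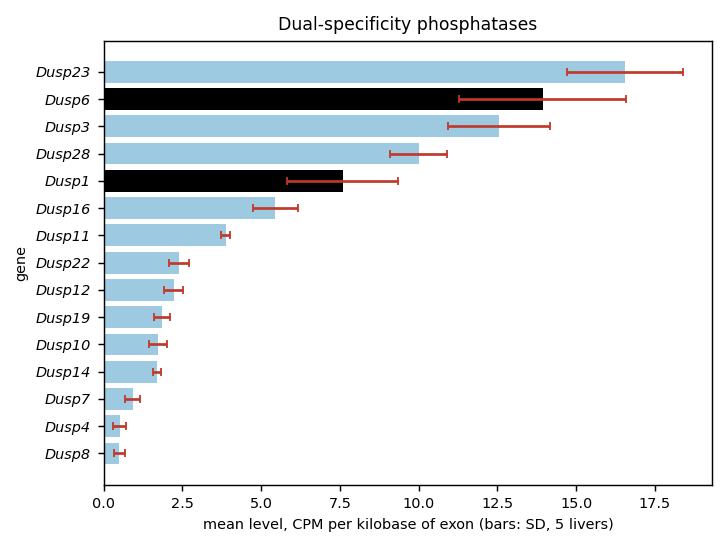
Mean level of 15 dual-specificity phosphatases in CPM per kilobase of exon on an axis from 0 (bars; error bars are the SD over 5 AAV8-Control livers; *Dusp1* and *Dusp6* in black). *Dusp23* leads at 16.6, *Dusp6* is second at 13.9 and *Dusp1* stands at 7.59.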

How the data were processed

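Poly(A)-selected RNA of livers was sequenced as single reads of 50 bases. The authors aligned reads with STAR 2.0.4b and counted uniquely aligned, unambiguous reads on genes of Ensembl's GRCm38 with featureCounts 1.4.5. They deposited CPM values, a step their methods do not describe. 100% of the values were whole multiples of 1 read (tolerance 0.01). The table had 15236 lines for 15126 genes, and 110 repeated lines were dropped. The 5 AAV8-Control livers were described by CPM, by CPM per kilobase of exon, by the SD of log2(CPM + 1) with its percentile among the 11041 genes averaging 1 CPM or more, and by the order of livers (Python 3.11.15, numpy 2.4.6, pandas 2.3.3). No group comparison was made, since a part of the series is not reported here. Alternatives, chosen after seeing the data, were a pseudocount of 0.1, at least 10 reads in every library, median-of-ratios size factors and each liver left out. The scripts were tested on simulated counts.

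The 10 genes and all lists were chosen with earlier results of these data known, and the genes named from lists, as well as the pair of livers followed through them, were chosen after their values were seen. Lengths are from GENCODE M21 and promoters from RefSeq, both GRCm38. The depth makes 1 read worth at most 0.0513 CPM. Labels give no batch.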

Additional observations from a re-analysis of the deposited data

Results flagged for a closer look

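In 5 of 63 genes, the 10 described above, 40 other immediate early genes and 13 other phosphatases, 1 liver stood apart from the other 4 by Dixon's criterion at 95%, where chance gives about 1 in 20. This was 7.94% of these genes, beside 5.78% of all 11041 genes averaging 1 CPM or more, so the count as a whole was near the background. *Fos* had replicate 3 at 2.93 CPM with the others at 0.530 to 0.821 CPM, and *Btg2* had replicate 1 at 23.5 CPM with the others at 7.55 to 11.2 CPM. Replicate 1 also held 39.4 CPM of *Sik1* against 10.8 to 19.0 CPM and 17.4 CPM of *Cyr61*, a matricellular protein, against 8.41 to 10.0 CPM in the other livers. Replicate 3 held 11.1 CPM of *Nfkbiz*, a nuclear IκB protein, against 7.07 to 7.93 CPM. What lay behind these values was not tested.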

How the results depend on the processing

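The count of the 10 genes past the 95th percentile of SD was 5, also with a pseudocount of 0.1, with size factors and with at least 10 reads in every library, and 3 to 6 with 1 liver left out, the lowest without replicate 1. Among the other immediate early genes it was 16, with 12 to 17 under the former 3 alternatives and 10 to 18 with 1 liver left out, the lowest without replicate 5. Replicates 1 and 3 were the highest pair for 7 of the 10 genes and 22 of the others, and for 5 and 20 with size factors. Leaving out replicate 2, 4 or 5 can by construction only keep or raise these counts, and without replicate 1 or 3 they have no value. Of the mean levels, that of *Fos* fell from 1.15 to 0.707 CPM without replicate 3, and those of *Jun* and *Btg2* fell from 29.3 to 21.7 CPM and from 11.8 to 8.84 CPM without replicate 1. With size factors the mean of each of the 10 genes moved by less than its SD. No paired analysis was possible because only 1 group is reported, and the alternatives planned for comparisons were not run. *Fos*, at 11 to 104 reads, had the widest counting error of the 10. The cause of these changes was not tested.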
